A study of Mus musculus with 27 samples.

Results

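The shift described here is the change that knockdown of the RNA-binding protein PTBP1 made in how a gene's polyA+ RNA was split between chromatin and cytoplasm in mouse embryonic stem cells. For each gene and replicate number, the log2 ratio of chromatin to cytoplasmic TPM (transcript abundance scaled for transcript length and library total, 1 TPM added to each value) in siGFP cells was subtracted from the same ratio in siPTBP1 cells. A positive shift is therefore a gene whose RNA leaned more to chromatin after knockdown, and a negative shift one that leaned more to cytoplasm. Each gene has 3 such values. The 19213 genes with at least 1 TPM in at least 3 of the 12 libraries used were taken, of 53379 in the table, and the series holds 27 libraries in all. Of those genes, 10828 reached 1 TPM in every library and 988 in exactly 3, while 1238 genes just outside reached it in exactly 2.

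PTBP1 binds pyrimidine-rich RNA, mostly in introns, and represses the use of nearby exons and splice sites. It is abundant in stem and progenitor cells and low in neurons, where its neuronal paralogue PTBP2 takes over, and its known targets include introns and exons of synaptic and cytoskeletal genes. A polyadenylated transcript that still holds an intron is often kept at chromatin and either spliced late or degraded, whereas a fully spliced one is exported, so the chromatin to cytoplasm ratio of a gene can move with the splicing of its transcripts. A gene's TPM sums spliced and unspliced forms, and retention of introns was not measured here.

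All groups came from E14 cells, an established mouse embryonic stem cell line, grown on gelatin with LIF. Cells received either an eGFP siRNA (siGFP, the control) or a PTBP1 siRNA (siPTBP1), each at 20 uM, were transfected again after 24 hours and collected at 48 hours. RNA was taken from the chromatin (CH) and cytoplasmic (CY) fractions, with 3 biological replicates for each of the 4 groups, and strand-specific libraries were made after poly-T selection. Libraries of nucleoplasm (NP) and of a combined knockdown of PTBP1 and PTBP2 appear below only beside the shifts. The knockdown is transient and partial, and it was made in 1 line.

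Ptbp1 itself (chr10:79854427-79864771, plus strand) had 502, 534 and 611 TPM in siGFP CY and 144, 115 and 110.4 in siPTBP1 CY for replicates 1, 2 and 3. In CH it had 659, 349 and 534 TPM in siGFP and 242, 192 and 294 in siPTBP1. Every knockdown library was below every control library of its fraction. The fractions held 17301 to 19509 genes of at least 1 TPM in CH and 12210 to 13422 in CY, and the summed TPM of 11 nuclear long noncoding RNAs was 2911 to 7023 in CH against 92.9 to 204 in CY. All 21 pluripotency genes reached 1 TPM. They summed to 5328 to 5852 TPM in siGFP CY and 4450 to 5083 in siPTBP1 CY, ranges that do not overlap. In CH the sums were 2992 to 3650 in siGFP and 2206 to 3581 in siPTBP1, which overlap. The difference in CY was not tested. RNAs of the small RNA classes took 8.22 to 22.8% of TPM and were highest in the siGFP replicate 1 libraries of both fractions. TPM keeps no record of sequencing depth. In fractions of a culture, fewer cells of a type and less RNA per cell cannot be told apart.

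Across all 19213 genes the median shift was -0.01 on the log2 scale. With limma on the 3 paired values, 4 genes passed a Benjamini-Hochberg adjusted p of 0.05, which is 0.0208% of those tested. The 2 protein-coding genes among them leaned more to cytoplasm after knockdown: smooth muscle actin Acta2 and the actin-binding transgelin Tagln (0.0104% of genes called lower). A snoRNA, Gm25107, and an snRNA, Gm26446, were called on the chromatin side (0.0104% called higher). Gm25107 met the expression filter only through its 3 siPTBP1 CH values, so its sign was set by the filter and its call is no support for a shift. At an unadjusted p of 0.05, 1511 genes passed (7.86%), 742 higher and 769 lower, or 3.86% and 4%. Paired values with 3 replicates leave 2 residual degrees of freedom per gene, and 1300 of the genes tested have transcripts under 200 bases. When the latter and unannotated genes were left out, a choice made after seeing the data, 12 genes passed, 8 of them lower, among them Acta2, Tagln, Tpm1, Atat1, Gabbr1, Dbn1 and Vamp2. The 4 higher ones were Ska1, Rnu3a, Gm43601 and Trav12d-3, the last of which also met the filter only through its siPTBP1 CH values. Entering the replicate number as a block in a fit of the 12 libraries called 28 genes (0.146%), 18 higher and 10 lower (0.0937% and 0.052%), and of all 27 libraries 40 genes, 28 higher and 12 lower (0.208% in all, 0.146% higher and 0.0625% lower). With no block the fit of 12 libraries called 16 genes (0.0833%, with 0.052% higher and 0.0312% lower). Apart from Trav12d-3, all 16 have predicted-gene or microRNA symbols, and they include Gm25107. The fit of 27 libraries with no block called 9 (0.0468%, with 0.0312% higher and 0.0156% lower), Fmnl3 and Trav12d-3 among them. The genes named below are the 12 higher and 12 lower with the smallest p, after those called. They were taken among named genes averaging at least 5 TPM in at least 1 of the 4 groups, with all 3 shifts of 1 sign. Their small p and their agreement in sign are thus how they were picked. Those other than Acta2 and Tagln are given as values.

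**Figure D1:**
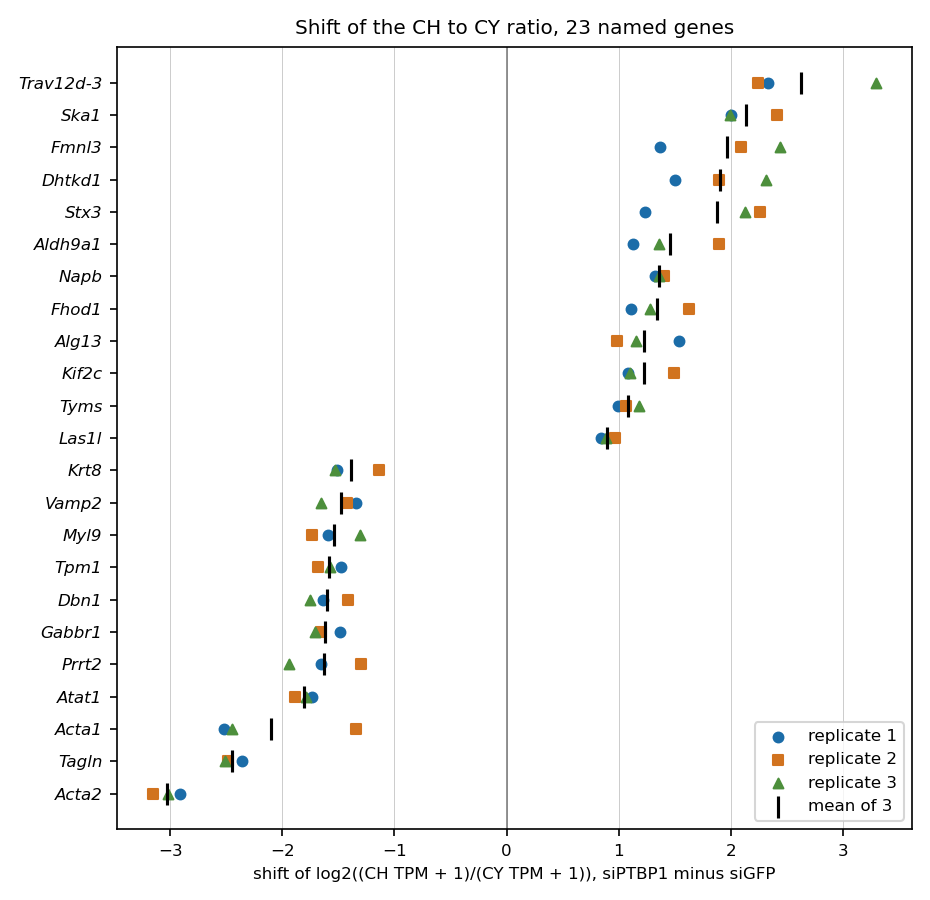
Shift of the chromatin to cytoplasm ratio (log2, siPTBP1 minus siGFP, horizontal axis) for 23 of the named genes, with 1 point for each of the 3 replicates and a bar at their mean. The genes were picked with all 3 points on the same side of 0, and Acta2 lies farthest to the left at -2.91 to -3.15.

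Because PTBP1 binds pyrimidine tracts, the ends of introns were read for 10 of the 24 named genes, those with an annotated retained-intron transcript that holds a whole intron. The last 100 bases of the most 3' such intron are printed 5' to 3' on the transcribed strand for 4 of them, 3 lower and 1 higher, from the GENCODE M21 transcripts (GRCm38), with the words TTCT and CTCT, overlaps included, in capitals.
Tagln: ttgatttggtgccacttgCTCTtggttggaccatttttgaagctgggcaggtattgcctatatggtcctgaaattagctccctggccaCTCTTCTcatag
Atat1: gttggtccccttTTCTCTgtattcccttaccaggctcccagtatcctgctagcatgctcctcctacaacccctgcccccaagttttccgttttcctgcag
Gabbr1: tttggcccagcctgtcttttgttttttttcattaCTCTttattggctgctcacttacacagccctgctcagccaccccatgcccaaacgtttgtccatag
Kif2c: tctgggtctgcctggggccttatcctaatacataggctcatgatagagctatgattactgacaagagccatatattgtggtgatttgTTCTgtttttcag
The window of Tagln lies at chr9:45930936-45931035 and holds 3 words, and that of Atat1 at chr17:35908665-35908764 holds 2. That of Gabbr1 at chr17:37072044-37072143 (plus strand) holds 1 word. On the other side the window of Kif2c at chr4:117177970-117178069 holds 1 word. Apart from Gabbr1 the windows are on the minus strand. The median was 1.5 words in the 4 higher and in the 6 lower genes, and 2 over 3180 tested genes with such an intron. TTCTCT or CTCTCT stood in 2 of the 6 lower and 1 of the 4 higher genes, in 25% of the genes lower and in 25% of those higher at an unadjusted p of 0.05 (45 of 180 and 24 of 96), and in 20.5% of the 3180. The sets of 180 and 96 genes were also limited to those with all 3 shifts of 1 sign. A match in such a window is a description of sequence and not a binding site.

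Acta2, the smooth muscle isoform of actin (ENSMUSG00000035783, chr19:34241090-34255590, minus strand), had the largest shift among the named genes. In CY it had 4.93, 2.37 and 6.46 TPM in siGFP against 51.0, 69.5 and 124 in siPTBP1, for replicates 1, 2 and 3. In CH it had 72.9, 15.9 and 40.6 TPM in siGFP against 85.1, 38.7 and 84.8 in siPTBP1. The CY groups do not overlap, and the CH groups do. Its 3 shifts were -2.91, -3.15 and -3.02, with a mean of -3.03 (SE 0.15, n = 3, adjusted p = 0.0372 in limma). Every SE given here is limma's moderated one, which borrows variance across genes and is not the spread of the 3 shifts. It can lie above or below the SE of the 3 values alone. The SD of the 3 shifts of Acta2 was 0.12. The mean log2 chromatin to cytoplasm ratio of Acta2 was 2.81 in siGFP and -0.21 in siPTBP1. Both TPM values are relative to their own library, so the ratio compares places among the RNAs of each fraction, not amounts per cell. Tagln, an actin-binding marker of smooth muscle (ENSMUSG00000032085, chr9:45929619-45936058, minus strand), had 20.2, 7.42 and 12.9 TPM in siGFP CY and 89.8, 60.8 and 98.5 in siPTBP1 CY. Its CH values were 190.3, 26.3 and 64.0 in siGFP and 159, 34.8 and 80.6 in siPTBP1. Here too only the CY groups are apart. Shifts by replicate were -2.36, -2.49 and -2.51, with a mean of -2.45 (SE 0.14, n = 3, adjusted p = 0.0387 in limma).

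Each gene passed in 8 of the 17 settings tried. Neither passed without a filter, with moderation lacking a trend, in the fits with no block, at 0.1 added TPM (adjusted p = 0.0932 for each), with median-ratio scaling (0.0929 for each), with quantile normalization (0.0622 for Acta2 and 0.0899 for Tagln), or without replicate 1 (0.181 for each). In the fit of 12 libraries with the replicate block the adjusted p was 0.191 for Acta2 and 0.254 for Tagln, and in that of 27 libraries 0.0313 and 0.0370. Among the siGFP CH libraries, Acta2, Tagln and Krt8 were highest in replicate 1. The summed TPM of 9 trophoblast markers was 985 there, against 72.6 and 152 in the other siGFP CH libraries. It was 542, 45.5 and 81.2 in siPTBP1 CH and 50.2 to 106 in CY. Most of the 985 came from the keratins Krt8 (524) and Krt18 (428), which are not particular to trophoblast. Cdx2, Eomes, Elf5, Gata3 and Ascl2 averaged only 0.73 to 1.98 TPM in siGFP CH. The summed TPM of 9 fibroblast markers was 162, 86.9 and 86.1 in siGFP CH, 80.8, 75.5 and 53.2 in siPTBP1 CH and 8.73 to 16.1 in CY, with Lum listed at 0 in every group. The part of these cell markers in the shifts was not tested.

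Tpm1, Myl9 and Acta1, also of the contractile apparatus, had shifts of the same sign, and Tpm2, described further on, of the other. Tpm1, a tropomyosin that winds along actin filaments and is a known splicing target of PTBP1 (ENSMUSG00000032366, chr9:67022590-67049406, minus strand), had 55.3, 72.7 and 88.3 TPM in siGFP CY and 253, 277 and 391 in siPTBP1 CY. In CH it had 255, 215 and 222 in siGFP against 414, 253 and 326 in siPTBP1, groups that overlap. The paired values gave shifts of -1.48, -1.68 and -1.58, with a mean of -1.58 (SE 0.12, n = 3, adjusted p = 0.0678 in limma). With short transcripts left out its adjusted p was 0.0309. Myl9, a regulatory light chain of myosin, had 12.3, 3.61 and 9.84 TPM in siGFP CY and 98.1, 66.8 and 138 in siPTBP1 CY, with 18.6, 3.62 and 7.79 in siGFP against 47.5, 19.4 and 44.5 in siPTBP1 in CH. By replicate, Myl9 had shifts of -1.59, -1.73 and -1.30, with a mean of -1.54 (SE 0.17, n = 3, adjusted p = 0.133 in limma). Myl9 was thus higher in both fractions, with an effect of 1.94 in CH and 3.48 in CY on the log2 scale. Acta1, skeletal muscle actin, had 1.57, 0.56 and 0.92 TPM in siGFP CY and 19.7, 8.06 and 19.4 in siPTBP1 CY. In CH it had 43.5, 2.40 and 10.6 in siGFP against 61.5, 6.77 and 21.6 in siPTBP1, groups that overlap and vary widely. The 3 shifts of Acta1 were -2.52, -1.35 and -2.45, with a mean of -2.10 (SE 0.29, n = 3, adjusted p = 0.229 in limma). Its siGFP CY values lie near the 1 TPM added, and the mean ran from -2.82 with 0.1 TPM to -1.10 with 5 TPM added.

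Several synaptic genes had negative shifts in all 3 replicates, some of them known to be repressed by PTBP1 outside neurons. Vamp2, a vesicle membrane protein of the synaptic fusion machinery (ENSMUSG00000020894, chr11:69088490-69092384, plus strand), had 13.2, 20.1 and 16.2 TPM in siGFP CY and 37.4, 60.2 and 62.8 in siPTBP1 CY, with 57.6, 89.2 and 71.4 in siGFP against 61.5, 96.7 and 84.0 in siPTBP1 in CH. The shifts were -1.35, -1.42 and -1.66, with a mean of -1.47 (SE 0.15, n = 3, adjusted p = 0.0941 in limma). With the block, the adjusted p was 0.00926 on 12 libraries and 0.00782 on 27.

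Gabbr1, a subunit of the GABA-B receptor (ENSMUSG00000024462, chr17:37045966-37075067, plus strand), had the highest siGFP ratio of the 12 lower genes, a mean log2 value of 5.10 in siGFP. It had 3.79, 4.77 and 4.57 TPM in siGFP CY and 8.67, 8.57 and 10.1 in siPTBP1 CY. In CH it had 129, 253 and 187 in siGFP and 92.8, 133 and 114 in siPTBP1. The CH level was lower and the CY level higher in every replicate pair. Its 3 shifts were -1.48, -1.65 and -1.71, with a mean of -1.62 (SE 0.15, n = 3, adjusted p = 0.0712 in limma). The block gave adjusted p = 0.0352 on 12 libraries and 0.0118 on 27. Prrt2, a protein of the synaptic release site (ENSMUSG00000045114, chr7:127017531-127021211, minus strand), had 0.49, 0.69 and 0.64 TPM in siGFP CY and 3.44, 3.92 and 4.89 in siPTBP1 CY, with 6.76, 9.81 and 9.10 in siGFP against 6.35, 11.8 and 8.44 in siPTBP1 in CH. Shifts by replicate were -1.65, -1.30 and -1.94, with a mean of -1.63 (SE 0.22, n = 3, adjusted p = 0.229 in limma). Its block values were 0.0352 and 0.0119. With siGFP CY below the 1 TPM added, the mean shift of Prrt2 ran from -2.54 with 0.1 TPM to -0.67 with 5 TPM added. Kif5a, a neuronal kinesin motor, had 2.35, 4.31 and 3.50 TPM in siGFP CY and 7.73, 12.2 and 8.53 in siPTBP1 CY, and its shifts were -0.96, -1.07 and -0.83 (mean -0.95, SE 0.17, adjusted p = 0.386 in limma).

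Atat1, the enzyme that acetylates alpha-tubulin (ENSMUSG00000024426, chr17:35897595-35910075, minus strand), had 4.33, 6.37 and 4.07 TPM in siGFP CY and 14.3, 22.3 and 16.9 in siPTBP1 CY. Its CH values of 44.0, 64.4 and 42.6 in siGFP and 37.8, 54.7 and 43.5 in siPTBP1 overlap. The paired values gave shifts of -1.74, -1.89 and -1.79, with a mean of -1.81 (SE 0.15, n = 3, adjusted p = 0.0678 in limma). With the block, the adjusted p was 0.00217 on 12 libraries and 0.00087 on 27. Dbn1, the actin-binding protein drebrin of dendritic spines (ENSMUSG00000034675, chr13:55473429-55488111, minus strand), had 12.3, 13.7 and 9.70 TPM in siGFP CY and 26.6, 34.2 and 31.2 in siPTBP1 CY. By replicate, Dbn1 had shifts of -1.64, -1.42 and -1.76, with a mean of -1.60 (SE 0.15, n = 3, adjusted p = 0.0712 in limma). It passed with short transcripts left out (adjusted p = 0.0355) but in neither block fit. Krt8, a simple epithelial keratin, had 524, 23.8 and 62.5 TPM in siGFP CH and 271, 13.3 and 30.2 in siPTBP1 CH, and 29.6, 13.9 and 13.7 in siGFP against 44.0, 17.9 and 19.8 in siPTBP1 in CY. Its CH level was lower with knockdown in each pair but ranged widely between replicates. Krt8 is itself a large part of the trophoblast marker sums given above. The 3 shifts of Krt8 were -1.51, -1.14 and -1.53, with a mean of -1.39 (SE 0.16, n = 3, adjusted p = 0.153 in limma).

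**Figure D2:**
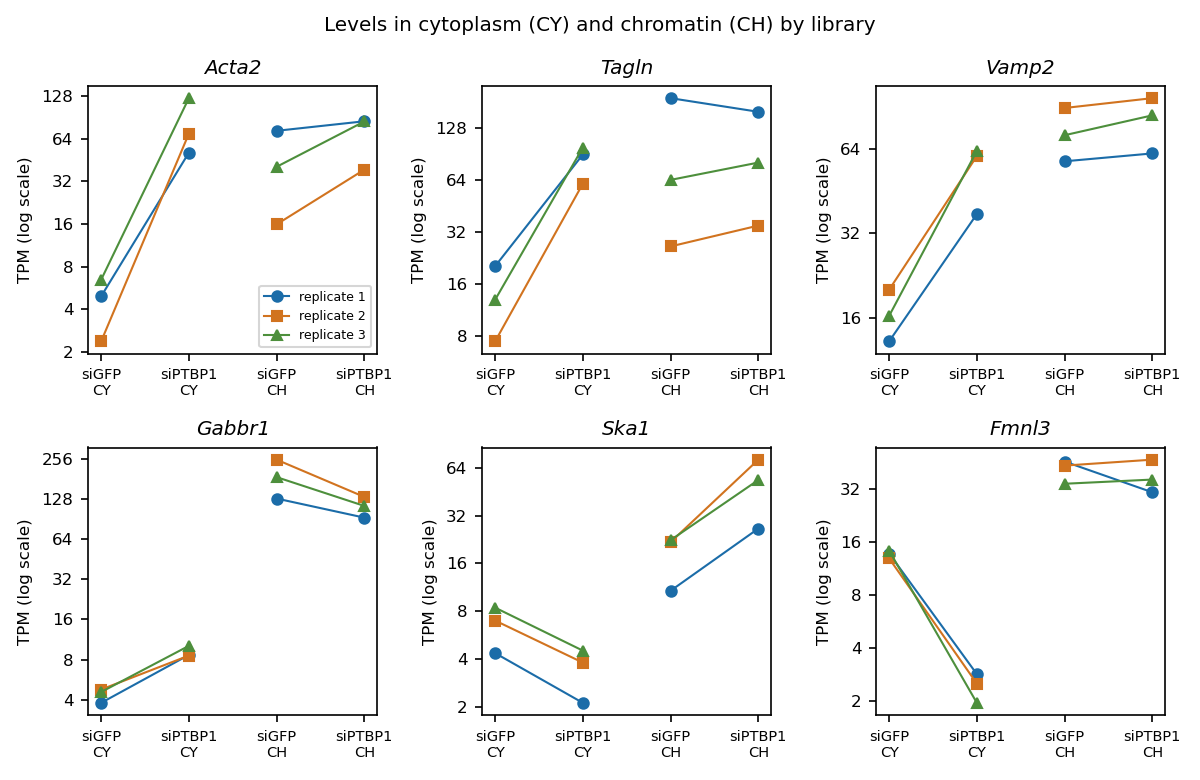
TPM (log axis) of Acta2, Tagln, Vamp2, Gabbr1, Ska1 and Fmnl3 in each of the 12 libraries, by fraction and siRNA, with lines joining the same replicate number. For Acta2, Tagln and Vamp2 the siPTBP1 CY libraries all lie above the siGFP CY libraries while the CH libraries overlap, and for Fmnl3 the siPTBP1 CY libraries all lie below.

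Among the 12 named genes with positive shifts, Ska1, a component of the complex that ties kinetochores to spindle microtubules (ENSMUSG00000036223, chr18:74195299-74207818, minus strand), had the smallest p of the named ones. It had 10.8, 21.8 and 22.4 TPM in siGFP CH against 26.5, 72.1 and 53.7 in siPTBP1 CH, and 4.36, 6.99 and 8.43 against 2.12, 3.80 and 4.52 in CY. The CH groups are apart, and CY was lower in every pair. The shifts were 2.01, 2.42 and 1.99, with a mean of 2.14 (SE 0.19, n = 3, adjusted p = 0.0678 in limma). The block gave adjusted p = 0.00577 on 12 libraries and 0.000104 on 27, and with short transcripts left out it was 0.0309. Kif2c, a kinesin that takes microtubules apart at the kinetochore (ENSMUSG00000028678, chr4:117159639-117182639, minus strand), had 40.2, 63.2 and 64.7 TPM in siGFP CY and 21.3, 26.2 and 33.4 in siPTBP1 CY, with 101, 143 and 152 in siGFP against 116, 172 and 169.8 in siPTBP1 in CH. Its 3 shifts were 1.08, 1.5 and 1.10, with a mean of 1.23 (SE 0.15, n = 3, adjusted p = 0.197 in limma). With the block, the adjusted p was 0.0258 on 12 libraries and 0.0119 on 27. Tyms, thymidylate synthase of DNA precursor synthesis, had 124, 133 and 144 TPM in siGFP CY and 64.1, 47.2 and 51.6 in siPTBP1 CY, groups that do not overlap. Shifts by replicate were 0.99, 1.06 and 1.18, with a mean of 1.08 (SE 0.14, n = 3, adjusted p = 0.201 in limma). No fit with a block called Tyms.

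Actin regulators were found on this side as well. Fmnl3, a formin that elongates actin filaments (ENSMUSG00000023008, chr15:99317225-99370482, minus strand), had 13.7, 12.9 and 14.2 TPM in siGFP CY and 2.85, 2.52 and 1.96 in siPTBP1 CY. Its CH values, 45.5, 43.2 and 34.1 in siGFP and 30.5, 46.6 and 36.0 in siPTBP1, overlap. The paired values gave shifts of 1.37, 2.09 and 2.44, with a mean of 1.97 (SE 0.25, n = 3, adjusted p = 0.201 in limma). The block gave adjusted p = 0.0103 on 12 libraries and 0.00013 on 27. Fhod1, another formin (ENSMUSG00000014778, chr8:105329163-105347953, minus strand), had 10.4, 11.4 and 10.2 TPM in siGFP CY and 2.56, 2.99 and 3.17 in siPTBP1 CY. By replicate, Fhod1 had shifts of 1.11, 1.63 and 1.28, with a mean of 1.34 (SE 0.18, n = 3, adjusted p = 0.222 in limma). With the block, the adjusted p was 0.0534 on 12 libraries and 0.0252 on 27. Tpm2, another tropomyosin, went the other way from Tpm1, with 33.5, 35.9 and 31.9 TPM in siGFP CH and 46.7, 85.9 and 64.1 in siPTBP1 CH, and 24.9, 42.7 and 32.0 in siGFP against 15.9, 20.7 and 19.9 in siPTBP1 in CY. Neither pair of its groups overlaps. The 3 shifts of Tpm2 were 1.08, 2.25 and 1.65, with a mean of 1.66 (SE 0.25, n = 3, adjusted p = 0.29 in limma). The block gave adjusted p = 0.0178 on 12 libraries and 0.0313 on 27. Flna, the actin cross-linker filamin A, had 60.4, 71.7 and 53.3 TPM in siGFP CY and 19.1, 19.3 and 17.9 in siPTBP1 CY, and its shifts were 0.52, 2.28 and 1.74 (mean 1.52, SE 0.38, adjusted p = 0.538 in limma). Cytoplasmic actin Actg1 had 3201, 3218 and 3530.4 TPM in siGFP CY and 2218, 1445 and 1929.9 in siPTBP1 CY, and its shifts were 0.52, 2.55 and 1.70 (mean 1.59, SE 0.45, adjusted p = 0.595 in limma).

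The other higher genes differ in function. Dhtkd1, a subunit of a mitochondrial dehydrogenase of lysine breakdown (ENSMUSG00000025815, chr2:5896115-5942792, minus strand), had 6.37, 17.8 and 11.0 TPM in siGFP CY and 2.28, 5.29 and 3.23 in siPTBP1 CY. The shifts were 1.5, 1.89 and 2.31, with a mean of 1.90 (SE 0.22, n = 3, adjusted p = 0.15 in limma). Stx3, a syntaxin of the apical plasma membrane (ENSMUSG00000041488, chr19:11775118-11819403, minus strand), had 53.5, 82.6 and 62.2 TPM in siGFP CH and 78.5, 161 and 138 in siPTBP1 CH, and 18.9, 38.2 and 32.3 in siGFP against 11.3, 14.8 and 15.8 in siPTBP1 in CY. Its 3 shifts were 1.24, 2.26 and 2.12, with a mean of 1.88 (SE 0.24, n = 3, adjusted p = 0.204 in limma). The block on 12 libraries gave adjusted p = 0.00664 for Dhtkd1 and 0.00699 for Stx3, and on 27 libraries 0.00121 and 0.00205. Aldh9a1, an aldehyde dehydrogenase, had 77.7, 111 and 84.1 TPM in siGFP CH and 130.1, 199.99 and 137 in siPTBP1 CH, groups that are apart. Shifts by replicate were 1.13, 1.90 and 1.36, with a mean of 1.46 (SE 0.19, n = 3, adjusted p = 0.204 in limma). Its block values were 0.0178 on 12 libraries and 0.0150 on 27. Alg13, which helps build the sugar chains of glycoproteins, had 60.0, 168 and 193 TPM in siGFP CY and 23.7, 74.9 and 73.7 in siPTBP1 CY, and its shifts were 1.54, 0.99 and 1.16 (mean 1.23, SE 0.16, adjusted p = 0.201 in limma). With the block, the adjusted p was 0.0847 on 12 libraries and 0.0149 on 27 for Alg13.

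For Las1l and Napb most of the shift lay in CH, with effects of 1.04 and 1.57 there against 0.14 and 0.21 in CY. Las1l, an endonuclease of ribosomal RNA processing, had 77.0, 161 and 111 TPM in siGFP CH and 160.4, 329.9 and 229 in siPTBP1 CH, with 39.3, 56.5 and 65.2 in siGFP against 45.5, 59.2 and 72.0 in siPTBP1 in CY. The paired values gave shifts of 0.84, 0.97 and 0.89, with a mean of 0.90 (SE 0.13, n = 3, adjusted p = 0.235 in limma). Napb, an attachment protein of vesicle fusion, had 3.81, 7.91 and 5.63 TPM in siGFP CH and 12.2, 24.8 and 20.9 in siPTBP1 CH, with 0.81, 1.59 and 1.52 in siGFP against 0.99, 1.83 and 2.24 in siPTBP1 in CY. By replicate, Napb had shifts of 1.32, 1.40 and 1.36, with a mean of 1.36 (SE 0.19, n = 3, adjusted p = 0.237 in limma). The block on 27 libraries gave adjusted p = 0.00209 for Napb (0.0813 on 12), and neither block fit called Las1l.

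The knocked-down gene itself had a positive shift that did not pass. The effect on Ptbp1 was -1.05 in CH and -2.15 in CY on the log2 scale, and its shifts were 0.35, 1.35 and 1.60 (mean 1.10, SE 0.27, adjusted p = 0.501 in limma). Ptbp2 had a shift of -0.37 (adjusted p = 0.686), Ptbp3 of -0.32 (adjusted p = 0.8), and the PTBP1 corepressor Raver2 of 0.35 (adjusted p = 0.697).

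**Figure D3:**
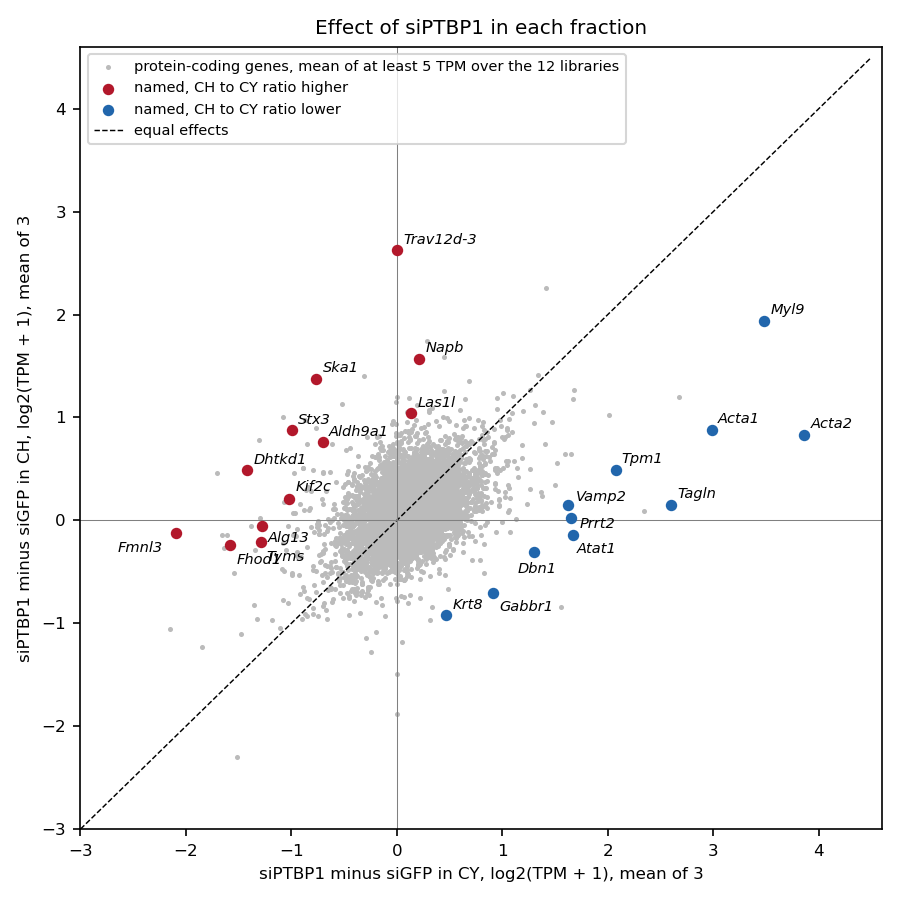
Knockdown effect in CY (horizontal axis) against that in CH (vertical axis), both as differences in log2(TPM + 1) of siPTBP1 minus siGFP, with 23 of the named genes marked over protein-coding genes averaging 5 TPM or more (grey). The 11 lower genes shown lie to the right of 0, with CY effects of 0.47 (Krt8) to 3.86 (Acta2). They lie below the line of equal effects, as any negative shift must. Of the 12 higher genes, 9 lie to the left of 0.

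The fractions contributed unequally to the named shifts. Among the 12 lower genes the median effect was 1.87 in CY and 0.12 in CH on the log2 scale, and all 12 had a positive CY effect. Among the 12 higher genes the median effect was -1.01 in CY and 0.62 in CH, with 9 negative CY effects and 8 positive CH effects. Trav12d-3, Las1l and Napb are the 3 without a negative CY effect. Trav12d-3 enters these medians and counts, but it met the filter only through its siPTBP1 CH values. Its positive CH effect was therefore set by the filter. All these medians and counts describe genes picked for the difference between the fractions. In NP, a fraction that does not enter the shift, 11 of the 12 lower genes had a positive effect (median 0.75) and 10 of the 12 higher genes a negative one (median -0.63). The NP counts have no share over all genes beside them here, so they only describe the named genes. Acta2 had an NP effect of 2.24, Myl9 of 2.09, Fmnl3 of -1.45, Tyms of -1.55 and Ska1 of -0.07. Tested singly by the same paired fit, the CH effect called 3 genes, all higher (0.0156%) and all small RNAs: Gm26446, Gm25107 and Mir8105. The CY effect called none (0%). At an unadjusted p of 0.05 in limma, 3045 of the 19213 genes were higher and 821 lower in CY. In CH, 1889 were higher and 738 lower, so higher genes outnumbered lower ones in both fractions.

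Cells given siRNAs against both PTBP1 and PTBP2 were compared with the same siGFP libraries, so their shifts are not a separate check and are set side by side only. Acta2 had a shift of -2.43 in that comparison and -3.03 with siPTBP1 alone. Gabbr1 had -1.32 and -1.62, and Vamp2 -1.43 and -1.47. On the other side Ska1 had 2.73 and 2.14, Fmnl3 2.00 and 1.97, and Stx3 2.47 and 1.88. Differences between the 2 knockdowns were not tested.

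Gene lists were read against the share of all tested genes with 3 shifts of 1 sign, which was 14.4% above 0 and 17.8% below 0. Of 14 known PTBP1 splicing targets, none was called by the paired fit, and 8 had all 3 shifts below 0 against 3 above, with a median shift of -0.43. At an unadjusted p of 0.05, 7 were lower and 2 higher. The 8 include Gabbr1, Vamp2, Tpm1, Kif5a, Dlg4 (-0.50) and Sv2a (-0.26), though Sv2a turned positive with 5 TPM added. The 3 above were Tpm2, Flna and Actn1 (0.24), and Pkm (0.21), Src (-0.03) and Ptbp2 had shifts of both signs. With the block, 3 targets were called lower, Gabbr1 and Vamp2 among them, and Tpm2 higher, on 12 as on 27 libraries. The list holds textbook targets, but its members were chosen with earlier results of these data known. It is not a random sample of PTBP1-bound genes.

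Of 20 presynaptic and synaptic genes tested, 13 had 3 shifts below 0 and 3 above, and the median was -0.41. The block on 27 libraries called 4 lower, Vamp2, Gabbr1 and Prrt2 among them, and the paired fit none. Among 35 genes of actin, myosin and their partners, the paired fit called Acta2 and Tagln lower, 15 genes had all shifts below 0 and 10 had all above 0, with a median of -0.29. Members with all shifts below 0 include Actc1 (-1.57), Cnn1 (-1.47) and Myl9, and those with all above 0 include Actb (0.56), Actg1 (1.59), Tpm3 (0.80), Tpm2 and Fmnl3. The neuronal marker list had a median of -0.02 over 11 genes, with none above 0 and 3 below in all replicates, and replicate medians of 0.54, -0.30 and -0.28.

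**Figure D4:**
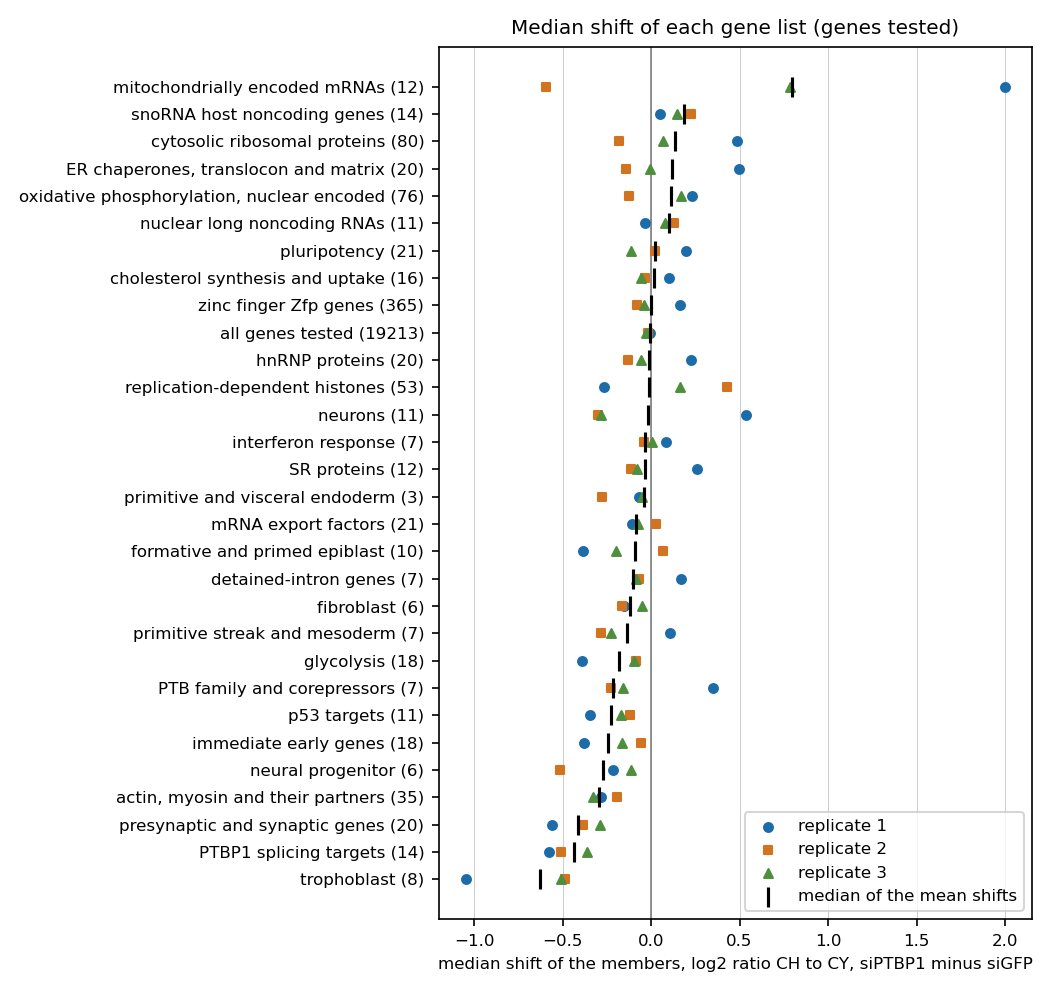
Median shift (log2) of each gene list in replicates 1, 2 and 3 (points) and over the mean shifts (bar). The PTBP1 splicing targets lie at -0.36 to -0.58 in the 3 replicates, and the mitochondrially encoded mRNAs spread from -0.60 to 2.00.

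Lists of RNA-processing and nuclear RNAs stayed near the all-gene median. It was -0.03 for 12 SR proteins, -0.01 for 20 hnRNP genes, -0.09 for 21 export factors, -0.10 for 7 genes known for detained introns and 0.10 for 11 nuclear long noncoding RNAs. Malat1, a long noncoding RNA of nuclear speckles, had a shift of 0.28, and Neat1, the scaffold of paraspeckles, of 0.28. None of these lists held a call in the paired or block fits. Housekeeping lists had small medians: 0.14 for 80 ribosomal proteins, 0.11 for 76 oxidative phosphorylation genes (19 with all shifts above 0 and 4 below) and -0.18 for 18 glycolysis genes (0 above and 10 below). The replicate medians were 0.49, -0.18 and 0.07 for ribosomal proteins and 0.23, -0.12 and 0.17 for oxidative phosphorylation, so both differ in sign. Of 18 immediate early genes, 9 had all shifts below 0 and 0 above, with a median of -0.24, and of 11 p53 targets 6 below and 0 above, with a median of -0.23. The median was 0.19 for 14 noncoding snoRNA hosts, 0.12 for 20 genes of the endoplasmic reticulum, 0.02 for 16 genes of cholesterol synthesis and for 21 pluripotency genes, and -0.01 for 53 replication-dependent histones. Among marker lists of other cell types it was -0.27 for 6 neural progenitor genes, -0.13 for 7 of primitive streak and mesoderm and -0.12 for 6 fibroblast genes. For the 8 trophoblast markers tested the median was -0.63, with Krt8, Krt18, Hand1 and Cdx2 below 0 in all replicates. The mitochondrially encoded mRNAs had medians of 2.00, -0.60 and 0.79 in replicates 1, 2 and 3, which differ in sign. The share of TPM from mitochondrially encoded genes was 0.574 to 1.68% in CH and 0.0417 to 0.111% in CY. In siGFP, mt-Co1 averaged 176 TPM in CY, 2579 in CH and 29241.5 in NP. The median siGFP log2 ratio of CH to CY was 3.68 for the mitochondrially encoded mRNAs. It was 2.80 for the 20 genes of the endoplasmic reticulum list, against 1.02 over all genes. For RNA bound to these organelles the ratio may not compare chromatin with the whole cytoplasm, which was not tested.

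The protein-coding genes with a symbol and at least 1 group averaging 5 TPM or more numbered 10614. Of these, 351 were higher (3.31%) and 535 lower (5.04%) at an unadjusted p of 0.05 in limma, with all 3 shifts of 1 sign. Median length of the longest transcript was 3623 bases in the higher set, 3205 in the lower set and 3399 over all. The median number of exons was 10, 8 and 9. Annotated retained-intron transcripts were present for 69.8% of the higher genes, 62.8% of the lower genes and 63.3% of all. The CY effect was larger than the CH effect in size for 70.1% of the lower genes, 37.6% of the higher genes and 50.2% of all. In siGFP the median log2 ratio was 1.15 for the higher set, 1.13 for the lower set and 0.88 for all. The sets were cut by the shift, so the fraction shares only describe them.

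Small RNAs formed both called genes on the chromatin side. Gm25107, a predicted snoRNA of 129 bases (chrX:147484293-147484421, minus strand), had 13.3, 17.6 and 19.3 TPM in siPTBP1 CH and was listed at 0 in all 9 other libraries. Its shift has no meaningful test for that reason, and its mean of 4.13 with 1 TPM added became 7.38 with 0.1 and 2.11 with 5 TPM. Gm26446, a predicted snRNA of 103 bases (chr1:93363255-93363357, plus strand), had 6.93, 33.1 and 21.4 TPM in siGFP CH and 98.8, 299.6 and 287 in siPTBP1 CH, and was listed at 0 in every CY library. The 3 shifts of Gm26446 were 3.65, 3.14 and 3.69, with a mean of 3.49 (SE 0.21, n = 3, adjusted p = 0.0419 in limma). Since CY was 0, both shifts are those of CH alone and depend on the added 1 TPM. Shifts of small RNAs spread more between replicates: the median SD of the 3 shifts was 1.60 over 1259 small RNA genes against 0.30 over 13802 protein-coding genes. Of the 28 genes called with the block on 12 libraries, 13 were small RNA genes. Trav12d-3, a T cell receptor segment of 347 bases, had 4.03, 3.75 and 8.82 TPM in siPTBP1 CH and was listed at 0 in the 9 other libraries, with a mean shift of 2.62 that ran from 1.04 with 5 TPM to 5.70 with 0.1 TPM added.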

How the data were processed

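The values analysed are TPM per gene that the authors deposited. Per the submitters' processing notes, kallisto and STAR were used with the mm10 build; versions and the role of each are not given in the sources used here. No per-library read counts were used, since TPM keep no depth. Of 53379 gene IDs, 53274 were found in GENCODE M21 (GRCm38), which gave types and coordinates; 26 symbols that had become dates were restored. Log2(TPM + 1) was taken, the paired shift of the 3 replicate numbers was computed, and limma 3.58.1 in R 4.3.3 (trend and robust moderation) tested whether its mean differs from 0, with Benjamini-Hochberg adjustment over all 19213 genes with at least 1 TPM in at least 3 libraries. The procedure was tested on simulated data.

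Libraries were paired by replicate number. Deviations from the group means of log2 values correlated at 0.14 to 0.62 over the 18 pairs with the same number (median 0.29). The median was -0.16 over 36 pairs differing in number and group. Deviations within a group sum to 0, so positive values for the same number push the other pairs below 0. The -0.16 is therefore no separate check. The numbers come from the labels, which call the replicates biological but do not say what a shared number marks. Named genes were the 12 in each direction with all shifts of 1 sign, a mean of at least 5 TPM in a group and an informative symbol, called ones first and the rest by smallest p, plus Ptbp1, Ptbp2, Ptbp3, the PTBP1 splicing targets and up to 3 members of any list described; Actg1, Actb, Actc1, Cnn1, Tpm3, Rnu3a, Gm43601 and Mir8105 fall outside that rule and were chosen after their values were seen. Members and gene lists (29) were chosen with earlier results of these data known. No genome was used, so introns were read only from annotated retained-intron transcripts. The values of some genes and some sequences are not reported here, though they enter the counts and medians.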

Additional observations from a re-analysis of the deposited data

Results flagged for a closer look

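For 4 genes the test of the difference between the CH and CY effects, which is the paired shift, passed its threshold. For Acta2 the difference was -3.03 (log2, adjusted p = 0.0372 in limma), from an effect of 0.83 in CH and 3.86 in CY. For Tagln it was -2.45 (adjusted p = 0.0387), from 0.15 in CH and 2.60 in CY. The snRNA Gm26446 had 3.49 (adjusted p = 0.0419). The snoRNA Gm25107 had 4.13, but it met the expression filter only through the siPTBP1 CH libraries, so its call is no support for a difference. Every CY library of both was listed at 0. The directions of Acta2, Tagln and Gm26446 were seen in 3 of 3 replicates, the same values that the test used. For Gm25107 the direction was set by the filter.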

How the results depend on the processing

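The count of 4 genes (2 higher and 2 lower) depends on the setting. It became 16 (10 and 6) with no replicate block on 12 libraries, 28 (18 and 10) with the replicate block as a covariate, 9 (6 and 3) on 27 libraries without and 40 (28 and 12) with the block. It became 13 (3 and 10) with at least 5 TPM in at least 6 libraries and 12 (4 and 8) with transcripts under 200 bases left out. It was 3 (1 and 2) without mitochondrial genes and Mir6236. It was 0 (0 and 0) with 0.1 TPM added, without a filter, with median-ratio or quantile scaling and with moderation lacking trend and robust steps, where 1389, 1976, 1451, 1415 and 1484 genes had an unadjusted p under 0.05 in limma. Leaving out 1 replicate gave 0 to 88 genes, 0 to 45 higher and 0 to 43 lower, with 0 without replicate 1 (1806 unadjusted), 87 without replicate 2 and 88 without replicate 3. These leave 1 residual degree of freedom. Of the 4 genes, only Gm25107 was among the calls of each 12-library fit, and its call is no support because the filter set its sign. Of the 4, 0 were among the calls of 27 libraries without the block, and Acta2 and Tagln were among those with it. The sign turned for Src with median-ratio scaling (0.061) and over its leave-one-out values (-0.26 to 0.20), for Ptbp3 (-0.72 to 0.0041) and Pkm (-0.023 to 0.49) over theirs, and for Sv2a with 5 TPM added (0.10). No other shift turned among the genes rerun, which leave out Actg1, Actb, Actc1, Cnn1, Tpm3, Hand1 and Cdx2. The causes were not tested. TPM give no counting error, so low values carry an unknown depth limit.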
